A study of Mus musculus with 53 samples.

Results

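The clustered protocadherin genes of the mouse were followed through 22 RNA-seq libraries of embryonic fibroblasts. Members were the genes whose symbol begins with Pcdha, Pcdhb or Pcdhg in the authors' deposited tables, with no minimum level, which gave 58 of the 43432 genes listed. They lie in 3 neighbouring clusters on chromosome 18. By the RefSeq annotation of GRCm38, the build called mm10, the 14 Pcdha genes span 36930285 to 37188897, the 22 Pcdhb genes 37264998 to 37521419 and the 22 Pcdhg genes 37661775 to 37841873. A pair of gene identifiers carry the symbol Pcdha11, ENSMUSG00000007440 and ENSMUSG00000102206, and are kept apart by identifier. The cells were labelled MEF (mouse embryonic fibroblasts) and were either wild type (WT) or ANP32E-KO, lacking ANP32E, a chaperone that removes the histone variant H2A.Z from chromatin. One experiment compared DAC, which by its usual meaning is decitabine, an inhibitor of DNA methyltransferases, with its solvent DMSO, in 2 WT DMSO, 3 WT DAC, 2 KO DMSO and 3 KO DAC libraries. The other compared siRNA against H2A.Z (H2AZ siRNA) with a control siRNA labelled NT, in 3 libraries each of WT NT siRNA, WT H2AZ siRNA, KO NT siRNA and KO H2AZ siRNA. The series asks how ANP32E shapes where H2A.Z sits, between promoters and repeat elements. The labels give neither dose nor duration of DAC, nor whether the knockout cells are 1 clone or several. The 31 chromatin samples of the series were not analysed here.

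Clustered protocadherins are cadherin-like proteins of the cell surface, best known from neurons, where each cell uses its own small set of them and cells recognise a matching set on their neighbours. Every Pcdha and Pcdhg gene has a long variable exon with its own promoter, and its transcript is spliced to constant exons shared by the whole cluster, which encode the inner end of the protein. The Pcdhb genes stand apart, each with its own short end and no constant exons. The C-type genes Pcdhac1, Pcdhac2, Pcdhgc3, Pcdhgc4 and Pcdhgc5, which close the Pcdha and Pcdhg clusters, are not part of the random choice made by neurons. Promoter choice in neurons involves CTCF and cohesin, which join promoters to distant enhancers, and the clusters are held silent by DNA methylation and by the chromatin protein SMCHD1. The members have little described role in fibroblasts.

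Both tables are scaled by gene length and by library size, as FPKM for the DAC experiment and RPKM for the siRNA experiment, and they were made separately, so levels are compared only within a table. Read numbers solved from the deposited values gave 27503619 to 36910514 reads per library in the DAC experiment and 31928414 to 47172432 in the siRNA experiment, of which 10008 to 26958 and 2685 to 3904 fell in members. Because Pcdha members share their last exons, and Pcdhg members theirs, and because how such reads were counted is not given in the sources used here, values of neighbouring members may share reads. Pcdhga10 had 0 reads in the 10 libraries of the DAC experiment, so no read there was counted for all 22 Pcdhg genes. Pcdhga11, the next lowest, had 84 to 277. The 0 of Pcdhga10 does not show whether reads were counted for several of the other Pcdhg genes. If they were, the Pcdhg sum holds such reads more than once. WT DAC replicate 3 and KO DAC replicate 1 correlated slightly less with their groups (r of 0.979 to 0.981) than the other libraries of those groups did with each other (0.987 in both), and counts that change without them are given beside the main ones. In the siRNA experiment, replicate 1 of WT NT siRNA and of KO NT siRNA stood slightly apart in the same way (0.9938 to 0.9949 against 0.9952 and 0.9963). Anp32e itself was lower in every KO library, at 5.09 and 6.96 FPKM against 14.5 and 15.7 in the WT DMSO and WT DAC groups, and at 5.07 and 5.37 RPKM against 19.3 and 18.4 with NT and H2AZ siRNA. Where the deletion lies is not given in the sources used here. The H2A.Z gene H2afz fell from 202 to 17.2 RPKM in WT and from 194 to 27.9 in KO under H2AZ siRNA. The libraries of the genotypes also differ in sex-linked genes. Xist stood at 175 and 162 FPKM in the WT DMSO and WT DAC groups, at 0.751 in KO DMSO and at 33.9 in KO DAC, and the Y-linked Ddx3y at 0.00627, 0.0240, 3.08 and 5.36. Genotype and the sex of the cells therefore cannot be told apart. Fibroblast markers were present in every group. Mesothelial markers summed to 933.5 to 962.46 FPKM in KO DMSO against 10.1 to 12.3 in WT DMSO, 43.2 to 57.9 in WT DAC and 111 to 130 in KO DAC, with 9 of 10 measured members at 1 FPKM or more in KO DMSO and 3 in WT DMSO.

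**Figure D1:**
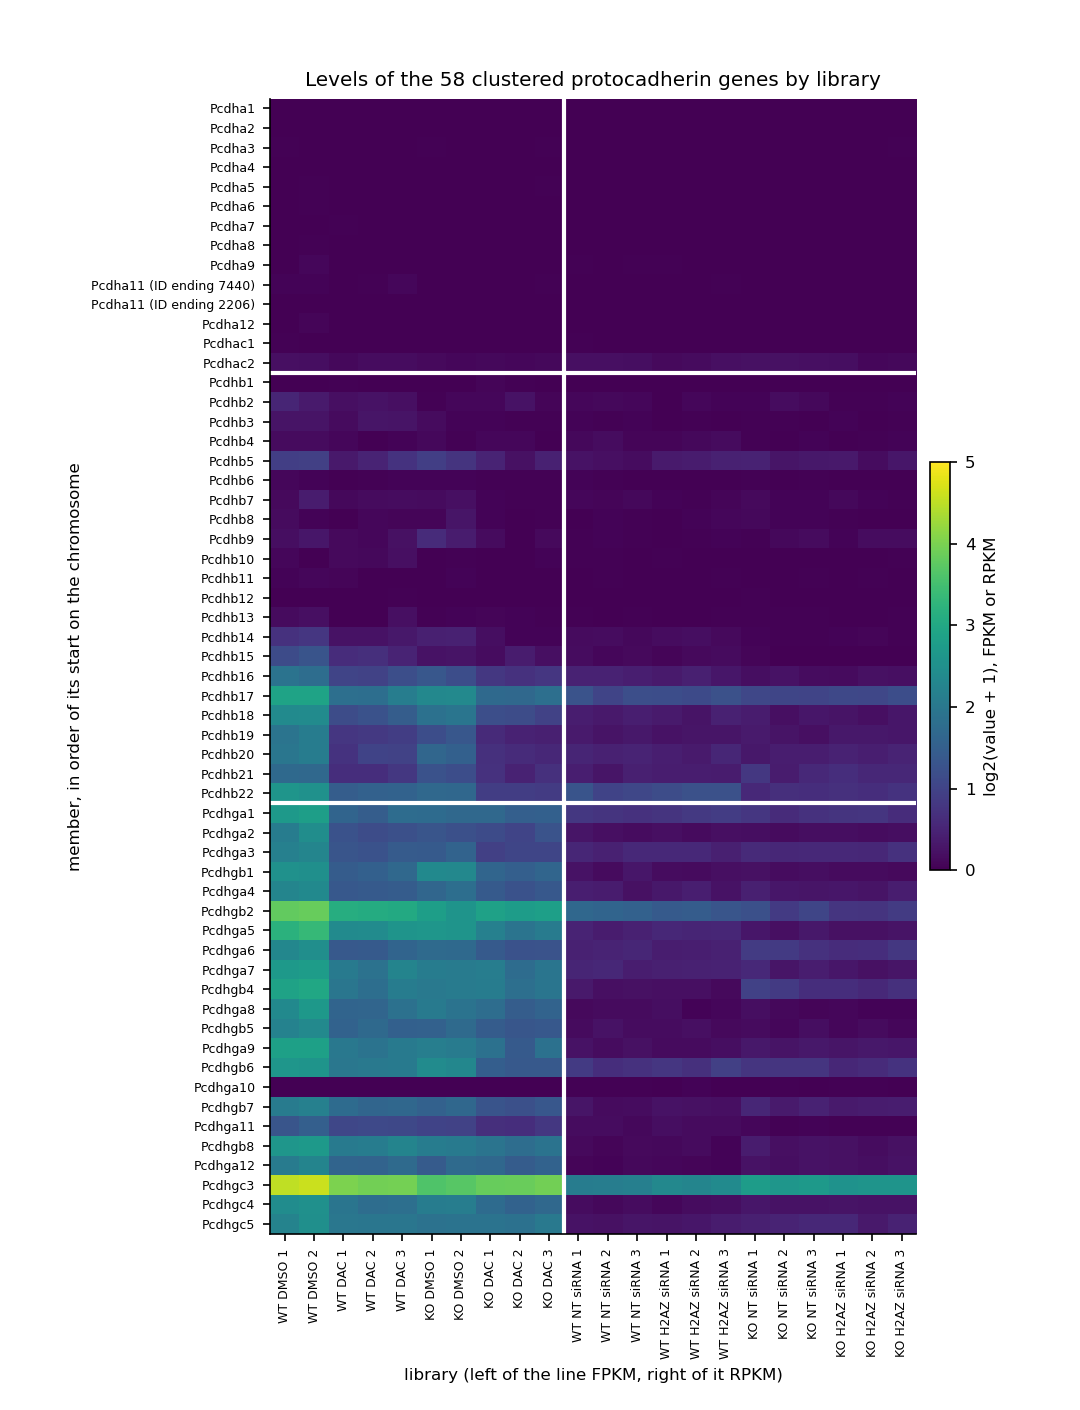
Level of each of the 58 members (rows, in genome order, white lines between clusters) in each of the 22 libraries (columns, white line between the FPKM and the RPKM table), coloured as log2 of the level plus 1. Pcdha rows are dark throughout, the last 8 Pcdhb rows and 21 of the 22 Pcdhg rows carry signal in the DAC experiment, and Pcdhgc3 is the brightest row in every column.

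The 3 clusters were used to very different degrees, and in the same order in each of the 8 groups. Pcdhg was the most abundant and Pcdha was close to nothing. Summed over members, Pcdhg reached 125 ± 7.66 FPKM (SD, n = 2) in WT DMSO, Pcdhb 31.0 ± 0.403 and Pcdha 0.317 ± 0.0825. In WT NT siRNA the sums were 10.3 ± 0.548 RPKM (SD, n = 3) for Pcdhg, 4.76 ± 0.584 for Pcdhb and 0.178 ± 0.00463 for Pcdha. Of the 22 Pcdhg genes, 21 had a mean of at least 1 FPKM in WT DMSO, against 8 of the 22 Pcdhb genes and none of the 14 Pcdha genes.

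**Figure D2:**
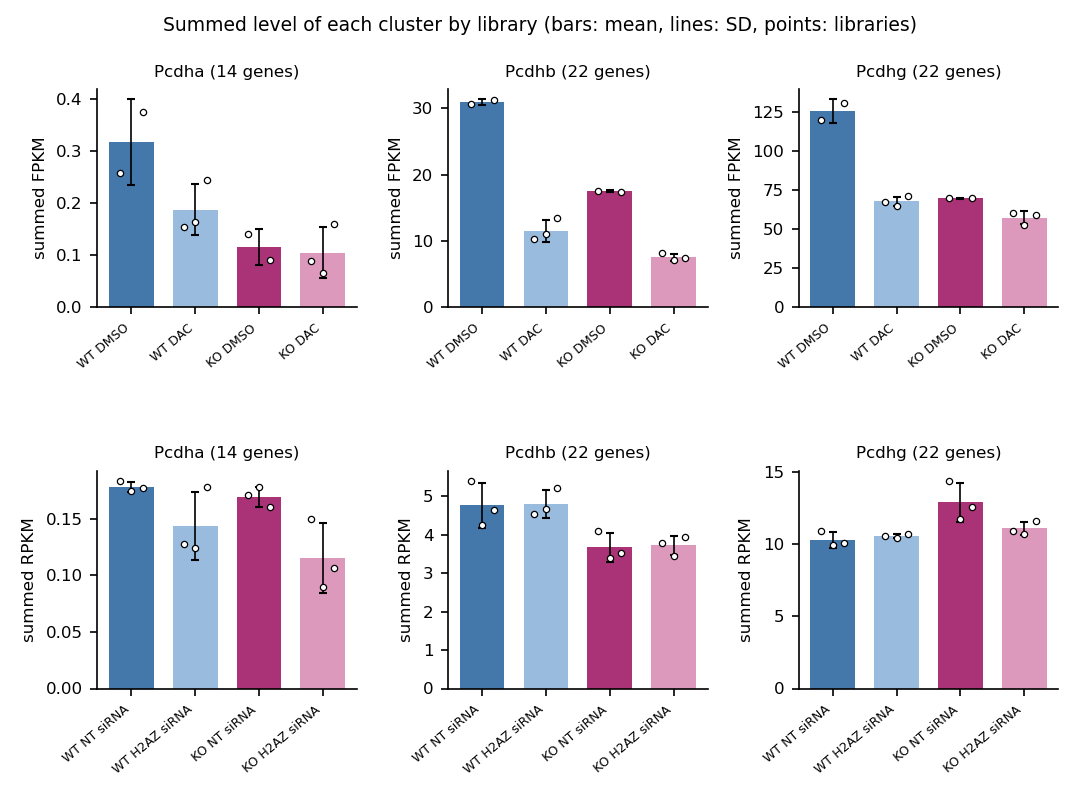
Summed level of the Pcdha, Pcdhb and Pcdhg clusters by group, in FPKM (DAC experiment) and RPKM (siRNA experiment). Bars are means, lines the SD and points single libraries; WT DMSO has the highest bar of the DAC experiment in all 3 clusters, with Pcdhg at 125 against 67.9 with DAC, and 69.7 and 57.4 in KO without and with DAC.

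Within Pcdha the leading member in every group was Pcdhac2, a C-type gene known for its part in the spacing of serotonergic axons. In WT its values were 0.155 and 0.135 FPKM with DMSO and 0.0840, 0.120 and 0.127 with DAC. In KO they were 0.0988 and 0.0602 with DMSO and 0.0718, 0.0652 and 0.0782 with DAC. The KO DMSO libraries were both below the WT DMSO libraries, and the KO DAC libraries all below the WT DAC libraries. With NT siRNA it stood at 0.146, 0.149 and 0.143 RPKM in WT and at 0.166, 0.173 and 0.156 in KO. With H2AZ siRNA the values were 0.0878, 0.111 and 0.149 in WT and 0.137, 0.0681 and 0.0828 in KO. These levels rested on 11 to 42 reads per library. Pcdhac2 made up 48.0% to 76.8% of the Pcdha sum in the groups of the DAC experiment and 80.5% to 97.3% in those of the siRNA experiment. The other members named by level, Pcdha11 ENSMUSG00000007440, Pcdha9 and Pcdha3, peaked in a single library at 0.0641, 0.0595 and 0.0245 FPKM. Pcdhac1, the other C-type gene of the cluster, had values above 0 in 7 of the 22 libraries and no more than 0.0241 FPKM. No Pcdha gene reached the level needed for testing by limma in either table. Limma-voom on read numbers tested Pcdhac2 alone among the Pcdha genes and did not call KO against WT. The adjusted p by limma-voom was 0.1489 with DMSO, 0.3264 with DAC, 0.5666 with NT siRNA and 0.4342 with H2AZ siRNA. The order of the Pcdha genes among themselves varied between groups, with Spearman's rho between 0.138 and 0.685 for groups of the same table.

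The Pcdhb genes kept one order of levels across both experiments and both genotypes. Ranked by group mean over the 22 genes, groups of the same table correlated with rho between 0.869 and 0.964 (12 pairs) and groups of different tables with rho between 0.802 and 0.95 (16 pairs). These are descriptions over 22 genes that share libraries and gene lengths. The highest members lay at the end of the cluster nearest Pcdhg: the sum of the last 9 genes, Pcdhb14 to Pcdhb22, was 28.7 FPKM in WT DMSO, against 2.29 for the 13 genes before them. Place in the cluster and level correlated with rho between 0.567 and 0.691 in the 8 groups. Pcdhb17 was the leading member in 7 of the 8 groups, with 20.9% to 31.4% of the cluster, and Pcdhb22 led in WT H2AZ siRNA with 27.5% against 26.5% for Pcdhb17. In WT DMSO the order was Pcdhb17 at 6.46 ± 0.0342 FPKM, Pcdhb22 at 4.92 ± 0.213, Pcdhb18, Pcdhb20 and Pcdhb19. Pcdhb18 had 4.23 and 4.32 FPKM there, below both Pcdhb22 libraries at 5.07 and 4.76. Pcdhb20, at 2.92 and 3.29, and Pcdhb19, at 2.80 and 3.27, did not differ beyond their spread.

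Pcdhgc3 led its cluster in every group. It is a C-type gene found outside the nervous system too, and its protein can dampen Wnt signalling through Axin1. It held 18.02% of the Pcdhg sum in WT cells with DMSO, 21.6% with DAC, and 16.7% and 23.9% in KO. In the siRNA experiment its share was 32.8% in WT NT siRNA, 38.2% in WT H2AZ siRNA, 42.8% in KO NT siRNA and 44.8% in KO H2AZ siRNA. Pcdhgb2 came next by mean level in all 8 groups, with 7.88% to 10.98% of the cluster in the DAC experiment. Its share in the siRNA experiment was 19.9% in WT NT siRNA, 15.5% in WT H2AZ siRNA, 8.21% in KO NT siRNA and 6.70% in KO H2AZ siRNA. The remaining members were far more even in the DAC experiment than in the siRNA experiment. Pcdhgc3 was 3.99 to 6.78 times the median member above 0 there, and 18.5 to 26.4 times in the siRNA experiment. At least 20 of the 22 genes had a mean of 1 FPKM or more in each group of the DAC experiment, while at most 2 reached 1 RPKM in a group of the siRNA experiment. Group orders correlated with rho of 0.776 to 0.982 within a table but only 0.311 to 0.592 between tables, unlike those of Pcdhb. The mean read number in WT DMSO was 4.75 times that in WT NT siRNA for Pcdhgb2 and 4.97 times for Pcdhgc3, but 48.3 times for Pcdhga12 and 48.9 times for Pcdhgb8. The experiments also differed in the share of even read numbers. Among read numbers of 1 to 20 over all genes, 65.7% to 67.8% were even in the DAC experiment and 38.4% to 41.6% in the siRNA experiment. The part of this in the different Pcdhg order was not tested.

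**Figure D3:**
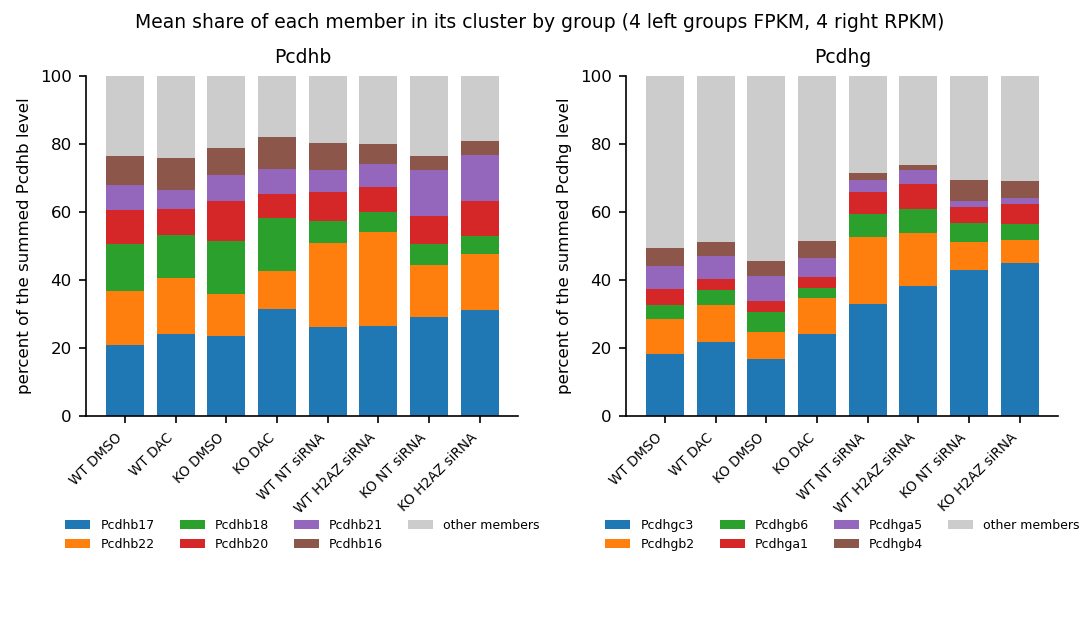
Mean share of the cluster's summed level, in percent, taken by the 6 leading Pcdhb and the 6 leading Pcdhg genes and by all others, in each of the 8 groups. Pcdhb17 takes 20.9% to 31.4% of Pcdhb, Pcdhgc3 takes 16.7% to 44.8% of Pcdhg, and Pcdhgb2 shrinks from 19.9% in WT NT siRNA to 8.21% in KO NT siRNA.

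For tests, a gene had to reach 1 FPKM in at least 2 libraries of the DAC experiment, or 1 RPKM in at least 3 of the siRNA experiment. That left 29 members in the first, Pcdhb15 to Pcdhb22 and every Pcdhg gene but Pcdhga10, and 4 in the second, Pcdhb17, Pcdhb22, Pcdhgb2 and Pcdhgc3. Fold changes are on the log2 scale of level plus 1, which understates the change of genes at low levels, and a change called the largest is so among tested members on this scale. Tests were by limma, with p-values adjusted over all tested genes and called below 0.05. They measure the spread between these libraries only, and in bulk RNA fewer expressing cells and less RNA per cell cannot be told apart.

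In the knockout cells with DMSO, both clusters with signal stood lower than in wild type. The Pcdhb sum was 17.5 ± 0.146 FPKM (SD, n = 2) against 31.0 ± 0.403, a ratio of 0.564, and the Pcdhg sum was 69.7 ± 0.118 against 125 ± 7.66, a ratio of 0.556. Pcdha went the same way, at 0.115 ± 0.0349 against 0.317 ± 0.0825. Of the 29 members tested, 28 fell and none rose, all 8 of the Pcdhb genes and 20 of the 21 Pcdhg genes. Over all 16435 genes tested, 22.9% were called lower and 19.6% higher. The median log2 fold change of the tested members was -0.607 and that of all tested genes -0.037. Pcdhb15 entered the test through WT DMSO alone, so its fall is partly fixed by the filter. Without a filter, among the 53 members above 0 in either group, 39 had both KO libraries below both WT libraries and 1, Pcdhb9, had them above, where 32.2% of all genes above 0 were wholly lower.

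On the log2 scale of FPKM plus 1 the largest fall belonged to Pcdhgb2, at 5.94 and 5.05 FPKM in KO against 12.99 and 13.3 in WT, a log2 fold change of -1.13 ± 0.08 (SE, limma, adjusted p = 6.419e-06). By limma-voom on reads solved from the table, Pcdhb2 (-2.84), Pcdhb15 (-2.77), Pcdhb3 (-1.71), Pcdhga2 (-1.43) and Pcdhga1 (-1.31) were called with larger falls than Pcdhgb2 (-1.27). Pcdhb2 had 2 and 6 reads in KO and 38 and 25 in WT (SE 0.76). Pcdhb3 had 11 and 4 against 24 and 24 (SE 0.63, limma-voom, adjusted p = 0.04319). These KO reads are too few for the fold changes to be read closely. Pcdhga1, the member nearest the start of the cluster, had 2.38 and 2.23 FPKM in KO and 5.39 and 6.02 in WT (-1.02 ± 0.12, limma, adjusted p = 0.0001502). Pcdhga2, its neighbour, had 1.497 and 1.33 FPKM against 3.26 and 4.45 (-0.997 ± 0.137, limma, adjusted p = 0.0004467). In Pcdhgb2, Pcdhga1 and Pcdhga2 both WT libraries lay far above both KO libraries. The most abundant member, Pcdhgc3, fell from 21.9 and 23.3 FPKM to 11.3 and 11.9 (-0.90 ± 0.06, limma, adjusted p = 5.78e-06). Pcdhgc4, which supports the survival of inhibitory neurons, fell less, from 4.39 and 4.69 FPKM to 3.27 and 3.32 (-0.37 ± 0.09, limma, adjusted p = 0.0123). Pcdhgc5 fell from 3.71 and 4.58 FPKM to 2.68 and 2.73 (-0.47 ± 0.10). All 3 C-type Pcdhg genes thus fell with the others, and the call for Pcdhgc4 was lost without WT DMSO replicate 2 (limma, adjusted p = 0.07633), KO DMSO replicate 1 (0.06368) or KO DMSO replicate 2 (0.05347).

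Among the Pcdhb genes Pcdhb15 moved most, from 1.21 and 1.45 FPKM to 0.182 and 0.196 (-0.97 ± 0.12, limma, adjusted p = 0.0002821). Pcdhb22 fell from 5.07 and 4.76 to 2.21 and 2.17 FPKM (-0.89 ± 0.08, limma, adjusted p = 4.051e-05). Pcdhb17 fell from 6.49 and 6.44 to 4.01 and 4.13 FPKM (-0.56 ± 0.11, limma, adjusted p = 0.003967). The genotypes did not overlap in any of these. Pcdhb18 and Pcdhb20 had smaller falls of -0.50 ± 0.12 and -0.44 ± 0.12. The call for Pcdhb18 was lost without WT DMSO replicate 2 (limma, adjusted p = 0.05215) or KO DMSO replicate 1 (0.06423), at changes of -0.49 and -0.46. That for Pcdhb20 was lost without WT DMSO replicate 2 (-0.38, adjusted p = 0.1133), KO DMSO replicate 1 (-0.50, 0.06097) or KO DMSO replicate 2 (-0.39, 0.118). The single tested member without a call was Pcdhgb1, with 4.19 and 4.06 FPKM in KO and 4.80 and 4.65 in WT (-0.16 ± 0.10, limma, adjusted p = 0.2166). Its libraries did not overlap either. Fibroblast markers fell with the members: 8 of the 12 were lower and 2 higher in KO DMSO, and their sum was 2095 to 2129 FPKM against 3464 to 3602. Neuronal and glial markers summed to 18.2 to 18.4 FPKM in KO DMSO and 15.3 to 18.7 in WT DMSO, and Rbfox3, Nefl, Dcx and Olig2 were at 0 in both. Of these 17 markers 6 were tested, and 4 were called lower and 1 higher in KO DMSO. Over all genes tested, 22.9% were lower and 19.6% higher. The part of these marker changes, and of the mesothelial markers above, in the lower protocadherin levels was not tested.

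With DAC the wild-type cells had lower levels of all 29 members tested, where 13.8% of all genes tested were called lower and 14.5% higher. Inhibitors of DNA methylation are used to wake genes that methylation holds silent. The filter kept only members already expressed in some libraries, so the test does not address silent members. None of the tested members rose, and the Pcdha genes were near 0 in both groups. The sum of Pcdhb1 to Pcdhb13, which limma did not test, was 2.29 FPKM with DMSO and 1.28 with DAC. The Pcdhb sum went from 31.0 ± 0.403 to 11.6 ± 1.65 FPKM (SD, n = 3), a ratio of 0.373. The Pcdhg sum went from 125 ± 7.66 to 67.9 ± 3.04, a ratio of 0.541. Pcdha had 0.187 ± 0.0493 FPKM after DAC, a ratio of 0.592. The median log2 fold change of tested members was -0.823 against -0.012 for all genes tested. Pcdhb15, Pcdhb19, Pcdhb20 and Pcdhb21 passed the filter only through DMSO groups, so their falls are partly fixed by it. Of the 55 members above 0 in WT DMSO or WT DAC, 37 were wholly lower with DAC and 1, Pcdhb10, wholly higher, against 21.3% of all such genes wholly lower.

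The 2 largest falls were of Pcdhb genes. Pcdhb19 went from 2.80 and 3.27 FPKM to 0.736, 0.786 and 0.870 (-1.17 ± 0.11, limma, adjusted p = 0.0001032). Pcdhb20 went from 2.92 and 3.29 to 0.651, 0.995 and 0.982 (-1.13 ± 0.11, limma, adjusted p = 0.0001699). Pcdhb18 went from 4.23 and 4.32 to 1.24, 1.39 and 1.78 (-1.10 ± 0.11, limma, adjusted p = 0.0001774). In all of these, no DAC library came near a DMSO library. Pcdhb17 ended at 2.54, 2.48 and 3.32 FPKM and Pcdhb22 at 1.77, 1.93 and 1.99 (-0.99 ± 0.10 and -1.03 ± 0.08). In the Pcdhg cluster Pcdhga1 fell most, to 2.05, 1.78 and 2.43 FPKM (-1.12 ± 0.11, limma, adjusted p = 0.0001318). Pcdhgb2 fell to 7.65, 7.41 and 7.26 (-0.75 ± 0.07) and Pcdhgc3 to 15.1, 14.4 and 14.5 (-0.59 ± 0.06, limma, adjusted p = 0.0001231). Pcdhgb4 fell to 2.91, 2.50 and 3.31 FPKM (-0.97 ± 0.11), from 6.41 and 6.85. Pcdhgc4 fell to 2.85, 2.43 and 2.55 (-0.62 ± 0.08). The smaller fall of Pcdhgc5, to 2.95, 2.91 and 2.92 (-0.39 ± 0.09, limma, adjusted p = 0.01303), was not called without WT DMSO replicate 2 (0.1256). Fibroblast markers moved with the members here too, with 9 of 12 lower and 1 higher and a sum of 2284 to 2407 FPKM in WT DAC, and their part in the result was not tested.

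In the knockout cells the response to DAC split. Most Pcdhb genes fell again, many Pcdhg genes did not, and Pcdhgc3 went up. Of the 29 members, 17 fell and 1 rose, where 21.6% of all tested genes were called lower and 23.7% higher. The falls were 7 of the 8 Pcdhb and 10 of the 21 Pcdhg genes. Pcdhb19, Pcdhb20 and Pcdhb21 passed the filter only through DMSO groups, and Pcdhb16, Pcdhb22 and Pcdhga11 reached 1 FPKM in KO DMSO but not in KO DAC, so their falls are partly fixed by it. Mesothelial markers moved with this response: 7 of 10 fell and 2 rose, and their sum went from 933.5 to 962.46 FPKM in KO DMSO to 111 to 130 in KO DAC. Their part in it was not tested. The Pcdhb sum went from 17.5 to 7.54 ± 0.526 FPKM (SD, n = 3), a ratio of 0.432. The Pcdhg sum went from 69.7 to 57.4 ± 3.96, a ratio of 0.822, with every DAC library below both DMSO libraries. Pcdha had 0.104 ± 0.0493 FPKM and its libraries overlapped. Of the 52 members above 0 in either group, 27 were wholly lower and 1, Pcdhgc3, wholly higher, against 24.3% of all such genes wholly lower. The median log2 fold change was -0.371 for tested members and 0.009 for all genes.

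Pcdhb20 fell from 2.12 and 1.91 FPKM to 0.622, 0.522 and 0.472 (-0.97 ± 0.11, limma, adjusted p = 0.0001608). Pcdhb22 fell from 2.21 and 2.17 to 0.867, 0.867 and 0.816 (-0.79 ± 0.08, limma, adjusted p = 5.047e-05). Pcdhb18 fell from 2.63 and 2.82 to 1.29, 1.23 and 0.989 (-0.78 ± 0.11), and Pcdhb17 from 4.01 and 4.13 to 2.29, 2.23 and 2.56 (-0.59 ± 0.10). Each had all 3 DAC libraries below both DMSO libraries. Pcdhgb6 was the Pcdhg gene that fell most, from 4.29 and 3.98 to 1.82, 1.62 and 1.63 FPKM (-0.93 ± 0.07, limma, adjusted p = 1.362e-05). Pcdhga5 fell from 5.15 and 5.02 to 3.52, 2.79 and 3.23 (-0.55 ± 0.10), and Pcdhgc4 from 3.27 and 3.32 to 2.35, 1.97 and 2.21 (-0.44 ± 0.08). Pcdhgc3 rose from 11.3 and 11.9 FPKM to 13.3, 13.5 and 14.3 (0.22 ± 0.06, limma, adjusted p = 0.01207), without overlap. That call was lost without KO DMSO replicate 1 (0.18, adjusted p = 0.1046). Pcdhgb2, at 6.25, 5.78 and 6.09 FPKM, overlapped its DMSO values of 5.94 and 5.05 (0.12 ± 0.07, limma, adjusted p = 0.2043). Pcdhgc5 overlapped as well, at 2.72, 2.63 and 3.05 against 2.68 and 2.73.

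The difference between the responses was tested directly as the interaction of genotype and treatment, for which 8 of the 10 mesothelial markers were below 0 and none above. Their part in the members' difference was not tested. The interaction was above 0 in 9 members, meaning a less negative or more positive response in KO, and below 0 in 1, where 12.4% and 11.7% of all tested genes were called. Of the 9, 8 were Pcdhg genes. Pcdhga1 differed most (0.97 ± 0.15, limma, adjusted p = 0.001929): it had fallen by 1.12 in WT, but in KO it stood at 2.38 and 2.23 FPKM with DMSO and 2.21, 1.84 and 1.90 with DAC. Pcdhga2 followed (0.92 ± 0.18, limma, adjusted p = 0.005905), then Pcdhgb4 (0.87 ± 0.16), Pcdhgb2 (0.87 ± 0.10) and Pcdhgc3 (0.81 ± 0.08, limma, adjusted p = 0.0001388). The KO DMSO means of Pcdhga1, Pcdhga2 and Pcdhgb4 were 2.30, 1.41 and 3.16 FPKM, beside 2.09, 1.33 and 2.91 in WT DAC. Pcdhb15 was the only Pcdhb gene among them (0.62 ± 0.16), with 0.128 to 0.297 FPKM in KO DAC and 0.182 and 0.196 in KO DMSO. It passed the filter through WT DMSO alone, so this difference is partly fixed by the filter, and limma-voom did not call it (adjusted p = 0.1305). Limma-voom called 10 Pcdhg genes above 0 and 1 below, and none of 17 Pcdhb genes. Pcdhgb6 went the other way (-0.34 ± 0.10, limma, adjusted p = 0.04081), having fallen further in KO. The calls for Pcdhgb6 and for Pcdhgc5 (0.42 ± 0.13, limma, adjusted p = 0.04359) were not stable. With replicate numbers as a block they had adjusted p = 0.08378 and 0.07856. Leaving out any single library except KO DAC replicate 1 ended the call for Pcdhgb6 (adjusted p of 0.0566 to 0.1622), and leaving out any but WT DMSO replicate 1 ended that for Pcdhgc5 (0.05658 to 0.1569). Over all members the count above 0 ranged from 5 to 11 as single libraries were left out. The total fell to 5 without WT DMSO replicate 2 or without KO DMSO replicate 1.

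**Figure D4:**
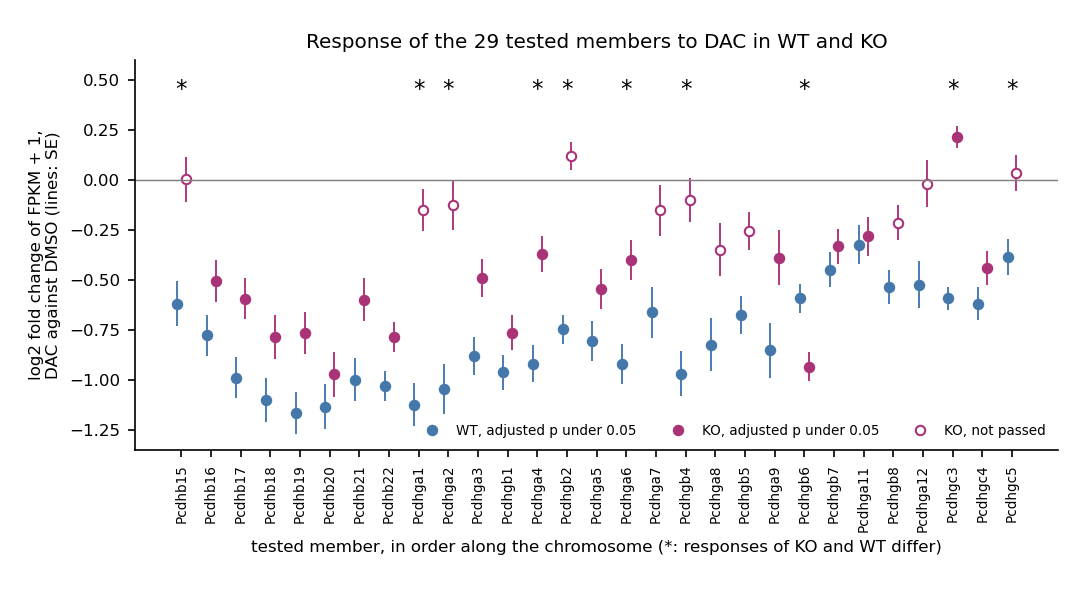
Log2 fold change of FPKM plus 1 with DAC against DMSO for the 29 members tested, in WT and in KO cells, with lines for the SE; filled points passed the test and open points did not, and asterisks mark the 10 members whose responses differed between genotypes. All 29 WT points lie below 0, from -1.17 for Pcdhb19 to -0.32 for Pcdhga11, while KO points run from -0.97 for Pcdhb20 to 0.22 for Pcdhgc3.

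With DAC the genotypes were closer together in the Pcdhg sum and less so in the Pcdhb sum. The Pcdhb sum was 7.54 ± 0.526 FPKM in KO and 11.6 ± 1.65 in WT, a ratio of 0.653, and the Pcdhg sum 57.4 ± 3.96 against 67.9 ± 3.04, a ratio of 0.845, both without overlap. The Pcdha libraries overlapped. The sum of Pcdhb1 to Pcdhb13 was further apart, at a KO to WT ratio of 0.538 with DAC and 0.756 with DMSO. By limma-voom the median difference of 17 Pcdhb genes was -0.776 with DAC and -0.875 with DMSO. Of the 29 members, 10 were lower in KO, 3 Pcdhb and 7 Pcdhg genes, and none was higher, where 11.6% of all tested genes were called lower and 11.1% higher. Of the 54 members above 0 in either group, 21 were wholly lower in KO, against 13.4% of all such genes. Pcdhb22 differed most, with 0.867, 0.867 and 0.816 FPKM in KO and 1.77, 1.93 and 1.99 in WT (-0.65 ± 0.07, limma, adjusted p = 0.0002797). Pcdhgb6 had 1.82, 1.62 and 1.63 against 2.94, 3.08 and 3.14 (-0.59 ± 0.06, limma, adjusted p = 0.0003589). Pcdhga5 had 3.52, 2.79 and 3.23 against 4.27, 4.34 and 5.05 (-0.41 ± 0.09), and Pcdhgb7 1.46, 1.32 and 1.55 against 2.36, 2.09 and 2.19 (-0.40 ± 0.08). The groups did not overlap in any of these 4. Of the groups compared, Pcdhb22 and Pcdhga11, which was also called, reached 1 FPKM in WT DAC alone. Their differences may thus be partly fixed by the filter. Pcdhgc3 was at 13.3 to 14.3 FPKM in KO and 14.4 to 15.1 in WT, a difference of -0.09 ± 0.05 that missed the threshold (limma, adjusted p = 0.228). Pcdhga1 and Pcdhgb4, far apart in DMSO, overlapped (-0.05 ± 0.10 and 0.00 ± 0.10). The call for Pcdhgb2 (-0.26 ± 0.06, limma, adjusted p = 0.01904) was lost without WT DAC replicate 1 (0.06498), WT DAC replicate 2 (0.05699), KO DAC replicate 2 (0.06746) or KO DAC replicate 3 (0.05034). The count was 5 without WT DAC replicate 2, without KO DAC replicate 2 or without KO DAC replicate 3, and 5 with WT DAC replicate 3 and KO DAC replicate 1 both left out.

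In the siRNA experiment the knockout differed from wild type in another pattern. Pcdhb was lower, at 3.67 ± 0.379 RPKM (SD, n = 3) against 4.76 ± 0.584 with NT siRNA, a ratio of 0.771. Pcdhg was higher, at 12.9 ± 1.36 against 10.3 ± 0.548, a ratio of 1.25. Both held without overlap, while Pcdha overlapped. The nearest Pcdhb libraries stood at 4.10 RPKM in KO and 4.25 in WT. With each library scaled to its median gene the ratios were 0.853 for Pcdhb and 1.38 for Pcdhg. The scaled sums were not compared for overlap. Much of the Pcdhg gain lay in the C-type genes, which summed to 6.12 RPKM in KO and 3.67 in WT, while the Pcdhga genes summed to 3.38 and 3.17 and the Pcdhgb genes to 3.39 and 3.46. Most of it lay in Pcdhgc3. Without Pcdhgc3 the Pcdhg sum was 7.39 RPKM in KO and 6.93 in WT, and the libraries overlapped. Of the 4 members tested, 1 rose and 2 fell, where 23.7% of the 12668 genes tested were called higher and 40.4% lower. All genes together were shifted in this comparison, by a median of -0.125 on the log2 scale, and centring them moved the split from 3004 higher and 5122 lower to 4288 and 3780, with the calls for the members unchanged in number.

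Pcdhgc3 was at 5.81, 5.21 and 5.48 RPKM in KO and 3.31, 3.36 and 3.44 in WT (0.57 ± 0.05, limma, adjusted p = 3.08e-06). Pcdhgb2 was at 1.33, 0.814 and 1.06 against 2.17, 2.04 and 1.93 (-0.57 ± 0.09, limma, adjusted p = 0.0001656). Pcdhb22 was at 0.483, 0.598 and 0.570 against 1.45, 1.01 and 1.08 (-0.49 ± 0.08, limma, adjusted p = 0.0002291), having passed the filter through the WT groups alone. None of the 3 overlapped, and Pcdhgc3 moved opposite to the others. Pcdhb17 overlapped, at 1.10, 1.07 and 1.02 RPKM in KO and 1.43, 1.03 and 1.29 in WT (-0.12 ± 0.07, limma, adjusted p = 0.1706). With H2AZ siRNA the same 3 genes differed between genotypes in the same directions, where 20.2% of all tested genes were higher and 42.7% lower in KO. Pcdhgc3 had 4.88, 5.05 and 4.97 RPKM in KO and 4.05, 3.81 and 4.23 in WT (0.25 ± 0.05, limma, adjusted p = 0.001331). Pcdhgb2 had 0.715, 0.694 and 0.825 against 1.68, 1.74 and 1.49 (-0.60 ± 0.09), and Pcdhb22 had 0.611, 0.566 and 0.661 against 1.25, 1.36 and 1.35 (-0.52 ± 0.08). Both genes reached 1 RPKM in WT alone here, so these differences may be partly fixed by the filter. The Pcdhb sums were 3.72 ± 0.240 and 4.80 ± 0.363 and the Pcdhg sums 11.1 ± 0.469 and 10.6 ± 0.158, again without overlap. Scaled to the median gene, the KO to WT ratios were 0.878 for Pcdhb and 1.19 for Pcdhg. Unscaled they were 0.775 and 1.05. Without Pcdhgc3 the Pcdhg sum was lower in KO, at 6.13 RPKM against 6.52, and the libraries overlapped. After scaling the ratio of that sum was 1.06, so its direction depends on the scaling. Here the median shift of all genes was -0.154, and centring turned 2563 higher and 5409 lower into 4281 and 3635.

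Because so few members reached 1 RPKM, the reads solved from the table were also tested with limma-voom, for genes with at least 10 reads in at least 3 libraries. That took in 35 members, 1 Pcdha, 13 Pcdhb and 21 Pcdhg genes. With NT siRNA 11 were higher in KO and 8 lower, where 23.0% of the 16887 genes tested were called higher and 35.2% lower. The Pcdhg genes leaned up, with 9 higher and 3 lower. Of the 13 Pcdhb genes 2 were higher and 5 lower, the latter near the 35.2% of all genes. Pcdhgb4 rose most, from 0.264, 0.154 and 0.176 RPKM in WT to 0.948, 0.802 and 0.580 in KO (1.94 ± 0.26, limma-voom, adjusted p = 1.248e-05), on 39 to 68 reads in WT and 154 to 214 in KO. Pcdhga12 rose from 0.0542, 0.0380 and 0.0708 to 0.189, 0.130 and 0.184 (1.64 ± 0.30). Pcdhgb7 rose by 1.36 ± 0.26 and Pcdhgb8 by 1.34 ± 0.37. None of these groups overlapped. Pcdhgc5 rose from 0.192, 0.169 and 0.210 to 0.361, 0.421 and 0.468 RPKM (1.13 ± 0.22) and Pcdhgc4 from 0.117, 0.0781 and 0.122 to 0.239, 0.187 and 0.188 (0.96 ± 0.28). So all 3 C-type Pcdhg genes were higher in KO here, having been lower in the DMSO groups.

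The falls were led by genes at very low levels. Pcdhb14 stood at 0.0296, 0.0264 and 0.0227 RPKM in KO and 0.112, 0.127 and 0.0724 in WT (-1.92 ± 0.40, limma-voom, adjusted p = 0.0007581). Pcdhga11 stood at 0.0649, 0.0214 and 0.0276 against 0.119, 0.116 and 0.0717 (-1.51 ± 0.40). Pcdhb15 had 5, 1 and 1 reads in the KO libraries and 16, 7 and 10 in WT (limma-voom, adjusted p = 0.008129), too few for a fold change to be read closely. Pcdhb4 had 3, 1 and 6 reads in KO and 13, 19 and 6 in WT, and its call (limma-voom, adjusted p = 0.02027) was lost without WT NT siRNA replicate 2 (0.07215), KO NT siRNA replicate 2 (0.09723) or replicate 1 of both genotypes (0.0561). Pcdhb4 and Pcdhb15 passed the filter on reads through WT groups alone, and Pcdhb9 through KO groups alone, so their differences are partly fixed by it. Pcdhb22 and Pcdhgb2 fell by 1.09 ± 0.15 and 0.97 ± 0.14 on this scale. With H2AZ siRNA 11 members were higher and 9 lower, where 19.4% of all genes were higher and 37.1% lower, again with Pcdhgb4 highest (2.04 ± 0.31) and with Pcdhga12 at 1.73 ± 0.32. Between them stood Pcdhb9 (1.88 ± 0.68, limma-voom, adjusted p = 0.02744), on 5, 16 and 17 reads in KO and 1, 3 and 4 in WT, with overlapping RPKM. Its call was lost without WT H2AZ siRNA replicate 1 (0.1425) or replicate 2 (0.05608). The medians over the 35 members were -0.222 with NT and -0.132 with H2AZ siRNA, against -0.106 and -0.143 over all genes. With library totals set by the median ratio, an alternative scaling, the medians were -0.106 and 0.021 over members and 0.005 and 0.011 over all genes, so that with H2AZ siRNA the sign changed. The calls then numbered 4971 higher and 4912 lower over all genes with NT siRNA, in place of 3876 and 5941, and 4876 and 4707 with H2AZ siRNA, in place of 3278 and 6270. For members the counts stayed at 11 and 8, and 11 and 9. Mesothelial markers summed to 169 to 191 RPKM in KO NT siRNA and 23.1 to 24.6 in WT NT siRNA, and fibroblast markers to 1354 to 1423 and 1364 to 1407. By limma all 9 mesothelial markers tested were higher in KO NT siRNA. Of 11 fibroblast markers tested, 6 were higher and 2 lower, where 23.7% of all genes tested were higher and 40.4% lower. The part of these markers in the members' differences was not tested.

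**Figure D5:**
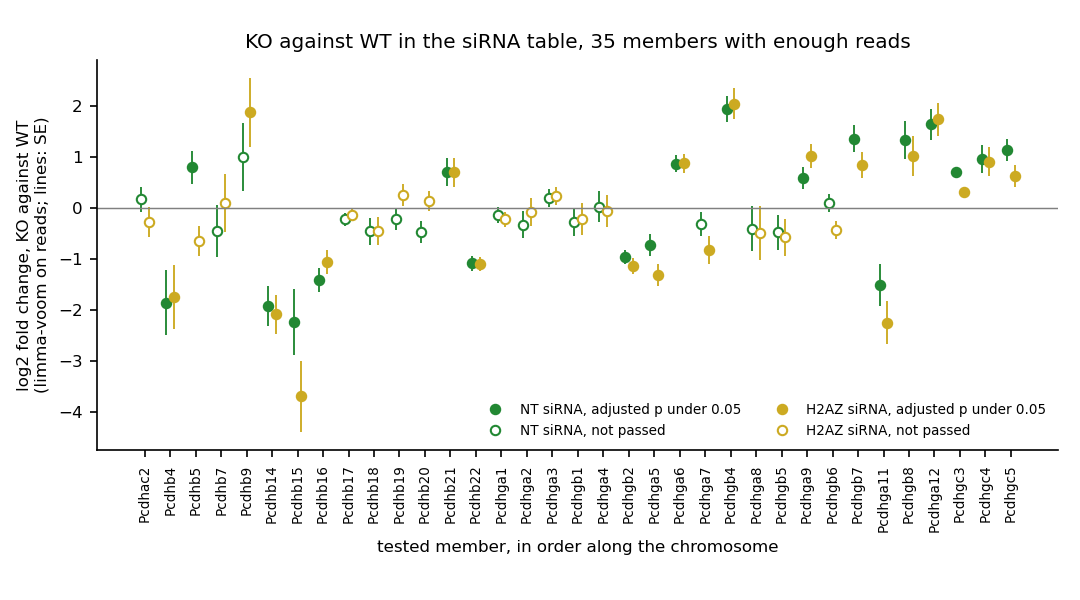
Log2 fold change by limma-voom of KO against WT for the 35 members tested, with NT siRNA and with H2AZ siRNA; filled points passed the test and open points did not. Pcdhgb4 lies highest at 1.94 and 2.04, Pcdhgc3 at 0.71 and 0.31, and the low Pcdhb14 at -1.92 and -2.09.

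Depletion of H2A.Z itself moved few members. In WT cells 1 of the 4 members rose and none fell, where 4.88% of all tested genes were higher and 10.4% lower. Centring each library on its median gene turned those 618 higher and 1315 lower into 1306 and 878. The member was Pcdhgc3, which went from 3.31, 3.36 and 3.44 RPKM with NT siRNA to 4.05, 3.81 and 4.23 with H2AZ siRNA (0.20 ± 0.05, limma, adjusted p = 0.0216). The groups did not overlap, but the call was lost without WT NT siRNA replicate 1 (0.05699), WT NT siRNA replicate 2 (0.05696), WT H2AZ siRNA replicate 1 (0.07177) or WT H2AZ siRNA replicate 3 (0.08987). By limma-voom it was also the 1 member of 35 called (0.25 ± 0.07), where 3.65% of all genes were higher and 8.41% lower. Median-ratio totals turned those 617 and 1421 genes into 1220 and 1240, and called 2 members. With replicate 1 of both NT groups left out, limma-voom called 3. The cluster sums overlapped between the siRNAs in WT, with ratios of 1.01 for Pcdhb and 1.02 for Pcdhg.

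In KO cells limma called none of the 4 members, where 6.56% of all tested genes were higher and 19.0% lower. At an unadjusted p under 0.05, 2 members were lower, Pcdhgb2 and Pcdhgc3. Centring turned the 831 higher and 2404 lower genes into 2010 and 1367. Pcdhgc3 went from 5.81, 5.21 and 5.48 RPKM to 4.88, 5.05 and 4.97 (-0.12 ± 0.05, limma, adjusted p = 0.1012), without overlap and opposite in sign to its change in WT. By limma-voom 2 of 35 members fell and none rose, where 16.1% of all genes were lower and 4.93% higher. Median-ratio totals turned those 2723 lower and 833 higher into 1839 and 2066, and called 1 member lower. The 2 members were Pcdhac2, on 38 to 42 reads per library with NT and 18 to 34 with H2AZ siRNA (-0.84 ± 0.27, limma-voom, adjusted p = 0.03779), and Pcdhgb2 (-0.49 ± 0.16, limma-voom, adjusted p = 0.0404). The call for Pcdhac2 was lost without any 1 of KO NT siRNA replicates 1, 2 and 3 or KO H2AZ siRNA replicates 2 and 3 (adjusted p of 0.06705 to 0.1652). That for Pcdhgb2 was lost without WT NT siRNA replicate 2, WT H2AZ siRNA replicate 1, KO NT siRNA replicate 1 or 3, or KO H2AZ siRNA replicate 1 or 2 (0.05189 to 0.1477). With replicate 1 of both NT groups left out, limma-voom called 0 members in KO. The Pcdhg sum fell from 12.9 ± 1.36 to 11.1 ± 0.469 RPKM, a ratio of 0.861, and the Pcdha sum from 0.170 ± 0.00884 to 0.115 ± 0.0313, both without overlap. Scaled to the median gene, the ratios were 0.926 for Pcdhg and 0.724 for Pcdha. The Pcdhb sums overlapped.

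The difference of the H2AZ siRNA response between genotypes was called for no member by limma, where 0.00789% of all genes were above 0 and 0.0% below. Pcdhgc3 alone was below 0 at an unadjusted p under 0.05, at -0.32 ± 0.07 (limma, adjusted p = 0.2406). Limma-voom called none of the 35 either, with 2 below 0 at an unadjusted p under 0.05, where 0.0118% of all genes were above 0 and 0.0% below.

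The genotype difference could be set side by side in DMSO and with NT siRNA, from separate libraries, for the 35 members with enough reads in the second. The KO libraries were wholly below WT in both experiments for 9 of them. They were wholly below in DMSO and overlapping with NT siRNA for 13, and wholly below in DMSO but wholly above with NT siRNA for 11. In DMSO alone 32.2% of all genes above 0 were wholly lower in KO. No share over all genes is given for both experiments jointly, so these counts cannot be set against a background. Pcdhb7 overlapped in both, and Pcdhb9 was wholly above in DMSO and overlapped with NT siRNA. Across genes, log2 ratios of the group means in the DAC and siRNA experiments correlated with rho of 0.703 over 13 Pcdhb genes and 0.118 over 21 Pcdhg genes. Of these Pcdhb genes, Pcdhb4 and Pcdhb15 passed the filter on reads through WT groups alone and Pcdhb9 through KO groups alone. Their NT siRNA ratios, and so the rho over Pcdhb, are partly fixed by the filter. Pcdhb4 and Pcdhb15 are also among the 9 members wholly lower in both experiments. Among the 11 that turned were Pcdhgc3, Pcdhgc4, Pcdhgc5 and Pcdhgb4, which stood at 3.08 and 3.24 FPKM in KO DMSO against 6.41 and 6.85 in WT DMSO. Pcdhac2 and Pcdhb5 were also among the 11, but limma-voom called Pcdhac2 in neither experiment and Pcdhb5 not in DMSO. Pcdhb22 and Pcdhgb2 were called lower in KO in all 4 genotype comparisons of both experiments, with the limits given above for Pcdhgb2 in DAC. In the siRNA table Pcdhb22 passed the filter through WT groups alone, so its calls there are no independent count. With DAC Pcdhb22 reached 1 FPKM in WT but not in KO. With H2AZ siRNA Pcdhgb2 reached 1 RPKM in WT but not in KO. These calls may also be partly fixed by the filter. The tables were normalised separately, so the change of direction itself was not tested.

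Genes around the clusters and genes known to act on them were examined as lists. Of 17 neighbours on chromosome 18, 15 were tested in the DAC experiment, and 4 were higher and 4 lower in KO DMSO, near the 19.6% and 22.9% of all genes tested. Taf7, a subunit of the general transcription factor TFIID that lies between Pcdhb and Pcdhg at 37640491 to 37644204, had 1.69 FPKM in KO DMSO and 2.76 in WT DMSO (-0.48 ± 0.13, limma, adjusted p = 0.01557). Its call was lost without WT DMSO replicate 2 (0.08948), KO DMSO replicate 1 (0.05867) or KO DMSO replicate 2 (0.08103). Fchsd1, on the far side of Pcdhg, rose from 2.27 to 11.5 FPKM (1.93 ± 0.11). With DAC in WT 3 neighbours rose and 1 fell, where 14.5% and 13.8% of all genes did, beside 29 falls among the 29 members tested. Of 12 protocadherins outside the clusters, 3 were tested. Pcdh18, which lies on another chromosome, had 48.0 FPKM in WT with DMSO and 17.6 with DAC, and 10.5 and 9.87 in KO (KO against WT in DMSO, -2.09 ± 0.10, limma, adjusted p = 8.03e-07). Pcdh7 rose in KO DMSO (1.15 ± 0.12) and Pcdh19 rose with DAC in both genotypes (0.96 ± 0.07 in WT, 1.27 ± 0.07 in KO).

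Genes for the machinery of promoter choice changed modestly in the DAC experiment. Of 14 genes for CTCF, cohesin and their loaders and modifiers, 3 were higher and 2 lower in KO DMSO, and 2 fell and none rose with DAC in WT, against 19.6% higher and 22.9% lower, and 13.8% lower and 14.5% higher, over all genes. With NT siRNA 9 of the 14 were lower in KO and none higher, beside 40.4% lower and 23.7% higher over all tested genes, a lean that centring turned as given above. Esco2 and Esco1, which acetylate cohesin, fell by 1.19 ± 0.14 and 0.99 ± 0.12, and Ctcf went from 14.6 to 11.9 RPKM (-0.28 ± 0.07, limma, adjusted p = 0.005253). Of 19 genes for silencing of the clusters, 18 were tested in the DAC experiment. In KO DMSO 3 were higher and 4 lower, near the 19.6% and 22.9% of all genes. With DAC in WT 1 rose and 6 fell, where 14.5% of all genes rose and 13.8% fell. Tet1, which oxidises methylated cytosine, went from 2.83 to 0.733 FPKM (-1.15 ± 0.10), and the DNA methyltransferase gene Dnmt3a from 6.17 to 3.86 (-0.56 ± 0.10). Smchd1 stood at 8.64 FPKM with DMSO and 7.93 with DAC in WT, and at 9.84 and 9.78 in KO, and was higher in KO than WT with DAC (0.27 ± 0.06, limma, adjusted p = 0.0161). Of 16 genes for partners of the protocadherin inner domains, 14 were tested, and 3 were higher and 1 lower in KO DMSO, against the same 19.6% and 22.9%. Marcks, a membrane-bound substrate of protein kinase C, was the one that fell, from 127 to 36.3 FPKM (-1.78 ± 0.17). The part of any of these genes in the protocadherin levels was not tested.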

How the data were processed

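The authors deposited 2 tables of gene levels with Ensembl mouse identifiers, one in FPKM for the DAC experiment and one in RPKM for the siRNA experiment. Both cover 43432 genes, 42462 of them with a symbol. The libraries came from a stranded, ribosome-depleted total RNA kit, per the labels' protocols. STAR, Bowtie2, deepTools and mm10 are named in the submitters' processing notes, without versions. For the counting tool, its strand setting, the annotation and the treatment of reads that fall in several genes, nothing is given in the sources used here. Stepwise values in the deposited FPKM and RPKM columns let whole reads be solved for 35023 of 35023 genes above 0, within 0.01 reads. Depth is given in the report. No interval is given for single libraries, and read numbers cover counting error only.

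Groups were taken from the sample labels, which name biological replicates except for KO H2AZ siRNA, labelled only as replicates. For each table, limma 3.58.1 in R 4.3.3 was fitted to log2 of the level plus 1 over its 4 groups with an intensity trend, after a filter of at least 1 in 2 libraries (DAC) or 3 (siRNA), and p-values were adjusted by Benjamini-Hochberg over all tested genes. Limma-voom on the solved reads was the count model for the siRNA table and an alternative for the DAC table. Both scripts were tested on simulated data. Sums, shares and ranks were computed in Python 3.11.15 over all 58 members. RefSeq positions on GRCm38 matched 58 of 58 members. No sequence is printed.

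The members and the gene lists were chosen with earlier results of these data known. Named members were the 4 highest of each cluster, the C-type genes, and up to 4 called members each way per comparison (2 for interactions), also in limma-voom. Genes named after their values were seen were Pcdhga10, Pcdhgb1, Pcdhb2, Pcdhb3, Pcdhb7, Pcdhb9, Pcdhb10, Smchd1 and Ctcf. Replicate numbers were checked for pairing: same-numbered deviations correlated above 0.1 in all 3 pairs only between KO NT siRNA and KO H2AZ siRNA (0.1563, 0.1443 and 0.2697), and blocking left that comparison's counts at 0 by limma and 2 by limma-voom. Alternatives were another pseudocount and filter, no filter, median centring, voom, a replicate block and each library left out; median-ratio totals, alternatives of the voom fit and joint removal of the libraries that stand apart were added after seeing the data.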

Additional observations from a re-analysis of the deposited data

Results flagged for a closer look

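Of the members tested with DAC and DMSO, 10 had a response that differed between KO and WT by the limma interaction test. On the log2 scale of FPKM plus 1, the KO response minus the WT response was 0.97 for Pcdhga1, 0.92 for Pcdhga2, 0.87 for Pcdhgb4, 0.87 for Pcdhgb2 and 0.81 for Pcdhgc3. It was 0.62 for Pcdhb15, 0.55 for Pcdhga4, 0.52 for Pcdhga6 and 0.42 for Pcdhgc5, and -0.34 for Pcdhgb6. Adjusted p by limma ran from 0.0001388 for Pcdhgc3 to 0.04359 for Pcdhgc5.

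In 11 members, some of them also named above, every KO library lay below every WT library with DMSO and above every WT library with NT siRNA. With DMSO alone 32.2% of all genes above 0 were wholly lower in KO, and no share over all genes is given for the joint pattern. The values that follow are log2 ratios of group means, KO to WT, with DMSO first and NT siRNA second. Pcdhgb4 had -1.07 and 1.97, Pcdhga12 -0.80 and 1.63, Pcdhgb8 -0.725 and 1.38, and Pcdhgb7 -0.70 and 1.34. The C-type genes had -0.96 and 0.71 (Pcdhgc3), -0.46 and 0.95 (Pcdhgc4), and -0.61 and 1.13 (Pcdhgc5). Pcdhga6 had -0.89 and 0.88, Pcdhga9 -0.90 and 0.58, Pcdhb5 -0.20 and 0.86, and Pcdhac2 -0.87 and 0.18. Limma-voom called Pcdhac2 neither with DMSO (adjusted p = 0.1489) nor with NT siRNA (0.5666). It did not call Pcdhb5 with DMSO (limma-voom, adjusted p = 0.648). The difference between the experiments was not tested, since the tables were normalised separately.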

How the results depend on the processing

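No count of called members and no called single-gene result changed direction under the alternatives run, but the median over 35 members for KO against WT with H2AZ siRNA went from -0.132 to 0.021 with median-ratio totals. A filter at 5 left 10 members called for KO against WT in DMSO, 4 in DAC, 10 for DAC in WT, 5 for DAC in KO, 5 for the difference of the DAC responses, 1 for KO against WT with NT siRNA and 1 with H2AZ siRNA, because fewer genes were tested. With no filter 17 and 14 members were called in the siRNA genotype comparisons. Limma-voom gave 19 and 20 there, also with median-ratio totals, and 2 for H2AZ siRNA in KO. Median-ratio totals gave 2 in WT and 1 in KO for H2AZ siRNA, and a pseudocount of 0.1 gave 1 in KO. Without the libraries that stand apart, 5 members differed between genotypes in DAC, and limma-voom called 3 (WT) and 0 (KO) for H2AZ siRNA. For these the cause was not tested. With a replicate block limma-voom called 2 members for H2AZ siRNA in WT. Elsewhere the blocked counts were 27 for KO against WT in DMSO, 7 in DAC, 28 for DAC in WT, 17 in KO and 7 for the interaction. The counts of members called lower for KO against WT in DMSO, and for DAC in each genotype, fell when some single libraries were left out. Leaving out a DMSO library leaves 1 in its group. Leaving out 1 library gave 5 to 8 members for KO against WT in DAC, 5 to 11 for the interaction, 0 to 1 for H2AZ siRNA in WT and 0 to 1 in KO, and by limma-voom 0 to 2 in each. Of single-gene results, 1160 kept their call when a library was left out and 113 lost it. Scaling each library to the median gene gave sums of 0.165 for Pcdha in WT NT siRNA, 30.1, 17.2 and 4.07 for Pcdhb in WT DMSO, KO DMSO and KO H2AZ siRNA, and 68.7, 9.51, 10.2 and 12.2 for Pcdhg in KO DMSO, WT NT siRNA, WT H2AZ siRNA and KO H2AZ siRNA.

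Groups of 2 or 3 libraries, low read numbers and the unstated counting of shared exons limit these results. In the siRNA experiment 4 members reached 1 RPKM in 3 libraries, which sets how many were tested.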
